A study of Mus musculus with 6 samples.

Results

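The α subunit genes of heterotrimeric G proteins were followed in mouse liver. The 9 genes are Gna12, Gna13, Gnaq, Gna11, Gna14, Gnai1, Gnai2, Gnai3 and Gnas, and their members on the array are all 13 non-control probes whose RefSeq accession belongs to one of them, of 55681 probes and 20284 named genes. Livers of 3 Gα12 KO mice, which lack the product of Gna12, were set against livers of 3 WT mice, on 1-colour Agilent arrays. All mice were male, aged 8 weeks, of strain C57BL/6 and 129/Sv with a background that was 95% C57BL/6, fed chow and fasted overnight before the livers were taken. Neither the deleted stretch of Gna12 nor the cells that carry the deletion are named in the labels. The tissue was whole liver, so fewer cells of a type and less RNA per cell cannot be told apart.

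A Gα subunit binds GDP at rest and exchanges it for GTP when an activated receptor engages the heterotrimer, after which Gα and the Gβγ dimer act on separate effectors. The family falls into classes by effector: Gα12 and Gα13 act through guanine nucleotide exchange factors for the GTPase RhoA, Gαq, Gα11 and Gα14 through phospholipase Cβ, the Gαi subunits inhibit adenylyl cyclase, and Gαs stimulates it. In hepatocytes the glucagon receptor is a well known partner of Gαs, and receptors for vasopressin and noradrenaline of the Gαq class.

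Values below are levels, given as log2 signals after subtraction of each array's 75th percentile, or differences, given as Gα12 KO minus WT on the same scale. Levels of different probes cannot be compared with each other. A probe was tested in the main fit when it was well above background, by the scanner software's own call, on at least 3 of the 6 arrays. Of the 13 member probes 9 passed this filter, and they covered 7 of the 9 genes; Gna12 and Gnai1 had no probe that passed. No member spot was saturated, so signals were limited only at the dim end. Over all 23132 probes that passed, limma called 0 (0%) at a Benjamini-Hochberg adjusted p below 0.05, and 21% had an unadjusted p below 0.05. Of those, 73.3% were lower in the Gα12 KO, or 61.1% when each array was centred on the median of its tested probes instead.

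The WT livers differed among themselves, which bears on every value below. Across probes, WT replicate 3 had correlations of 0.966 to 0.982 with the Gα12 KO arrays, and WT replicates 1 and 2 had correlations of 0.869 to 0.93 with those arrays and of 0.973 between the pair. The 7 Gapdh probes, which report 1 transcript, spanned 4.36 to 4.87 log2 units on the Gα12 KO arrays, 9.58 and 7.79 on WT replicates 1 and 2, and 4.01 on WT replicate 3. The part of RNA quality in this spread was not tested. The scanner software marked 98 to 158 spots as non-uniform on the Gα12 KO arrays and 2 to 6 on the WT arrays. All Gα12 KO arrays sat in row 2 of the slide and all WT arrays in row 1, and the effect of row cannot be told apart from that of genotype. The hepatocyte markers Alb, Apoa1, Ttr, Tat, Cps1, Serpina1a, Hnf4a and Cyp2e1 were well above background on every array (8 of 8), with a mean level of 8.78 to 9.06 in Gα12 KO livers and 8.50 to 8.65 in WT livers. These markers did not move as 1. Tat had levels of 8.08, 8.16 and 7.92 in Gα12 KO livers, against 5.72, 6.89 and 7.39 in WT livers. Cyp2e1 had levels of 10.05, 10.17 and 9.79 in Gα12 KO livers, against 10.51, 10.06 and 9.57 in WT livers. The 8 stellate cell and fibroblast markers (Lrat, Des, Reln, Dcn, Col1a1, Col3a1, Pdgfrb and Rgs5), 6 of them above background on every array, had a mean level of 0.09 to 0.23 in Gα12 KO livers and 0.38 to 0.71 in WT livers, and their part in the lower values of the Gα12 KO was not tested. Des and Reln, outside those 6, were lower in WT replicates 1 and 2 than in Gα12 KO livers. Des had levels of -3.54, -2.60 and -2.55 in Gα12 KO livers, against -5.08, -4.99 and -2.48 in WT livers. Reln had levels of -3.36, -3.33 and -3.60 in Gα12 KO livers, against -5.18, -5.49 and -2.62 in WT livers.

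Among the Gα subunits, no probe passed the test. Limma called 0 of the 9 tested probes at an adjusted p below 0.05, 1 had an unadjusted p below 0.05 and was lower in the Gα12 KO, against 15.4% of all tested probes, and 0 had one and were higher, against 5.62%. Among the 4 untested member probes 1 had an unadjusted p below 0.05, a dim Gnas probe, against 30.1% of all 55324 probes. Of the 9 tested probes, 6 had a negative difference and 3 a positive one, with a median of -0.80 against -0.38 over all 23132 tested probes, of which 15146 had a negative difference. The 3 Gα12 KO livers all lay below the 3 WT livers for 4 of the 9 probes, against 18.8% of all tested probes, and above them for 0, against 5.52%. Of these 4, 1 (a Gna13 probe) was well above background in no Gα12 KO liver and passed the filter only through the WT arrays. In 5 of the 9, WT replicates 1 and 2 lay above the other 4 arrays, as they did for 48.4% of all tested probes, and in 2 they lay below, as for 21.4%. The mean of the Gα12 KO livers was a median of 0.18 from WT replicate 3 over the 9 probes, and 1.05 from the mean of WT replicates 1 and 2, against 0.27 and 1 over all tested probes.

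**Figure D1:**
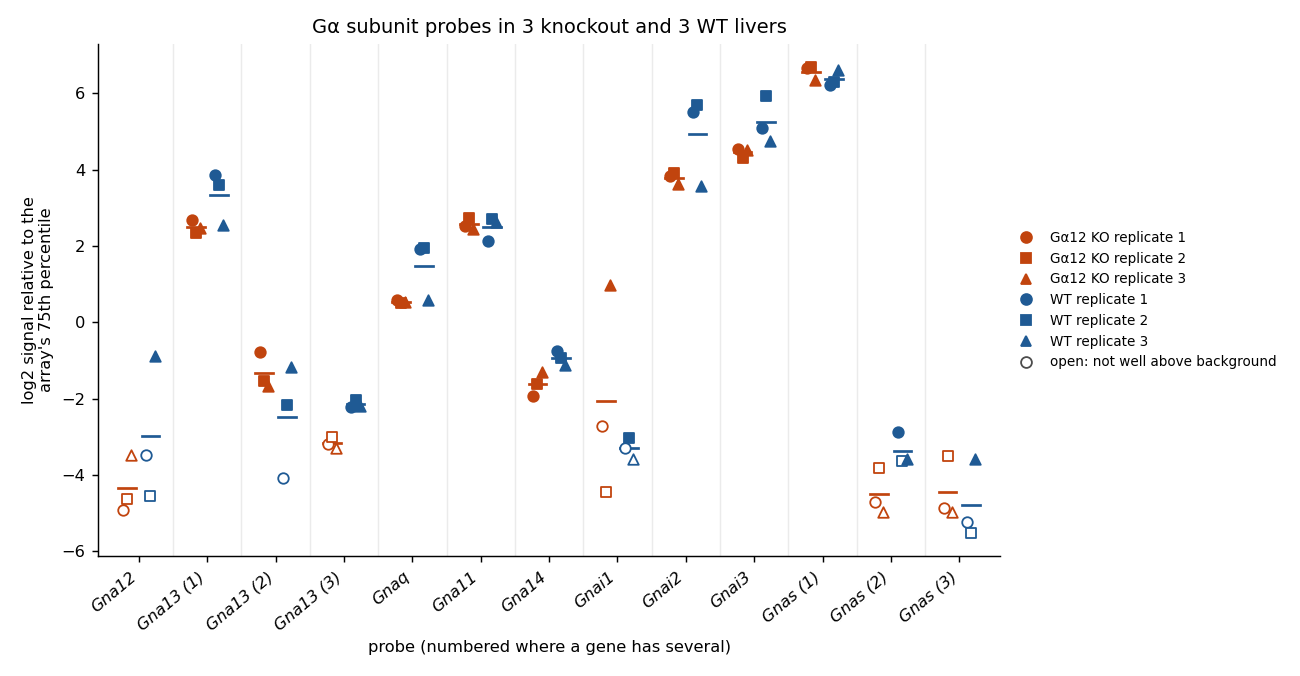
Levels (log2 signal relative to the array's 75th percentile) of the 13 Gα subunit probes in 3 Gα12 KO livers (left of each pair) and 3 WT livers (right), with a bar at each group mean and open symbols where the signal was not well above background. WT replicate 3 (triangle) lies near the Gα12 KO livers for Gnaq and Gnai2, and with the other WT livers for the third Gna13 probe. For Gna14 it lies between the other WT livers and the Gα12 KO livers.

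Gna12 encodes Gα12, the subunit that the knockout removes, and lies on chromosome 5. Its only probe (A_55_P2041788, accession NM_010302) read processed intensities of 10.1, 12.0 and 35.9 on Gα12 KO replicates 1 to 3, with the scanner software's error estimates of 10.1, 12.0 and 13.4. On WT replicates 1 to 3 the intensities were 20.0, 13.5 and 293, with error estimates of 6.10, 6.58 and 30.5. WT replicate 3 alone was well above background; WT replicates 1 and 2 were as dim as the Gα12 KO arrays. The levels were -4.91, -4.62 and -3.47 in Gα12 KO livers and -3.48, -4.55 and -0.89 in WT livers, so that the groups overlapped. Because no Gα12 KO array was well above background and the WT mean of -2.97 lay below the lowest signals called above background there (mean -2.67), no fold can be given. The fitted difference of -1.36 (SE 0.91) did not pass limma over all 55324 probes with a value on all arrays (adjusted p = 0.317), among which 0% were called. It rested on 1 array: the difference was -0.32 without WT replicate 3 and -3.44 against WT replicate 3 alone (limma adjusted p = 0.665 and 0.061, and 0.061 to 0.813 over the alternatives tried). The level in WT replicate 3 thus differed from the Gα12 KO livers as the genotype labels say, while in WT replicates 1 and 2 the probe gave no check of the labels, and its place relative to the deletion is not given in the sources used here.

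Gna13, on chromosome 11, encodes Gα13, the other member of the RhoA-coupled class, which shares many receptors and exchange factors with Gα12. It had 3 probes, numbered here by their mean level, all assigned to accession NM_010303, and they did not agree. The first (A_51_P286563) had levels of 2.67, 2.34 and 2.46 in Gα12 KO livers, against 3.86, 3.60 and 2.56 in WT livers, and differed by -0.85 (SE 0.41, limma adjusted p = 0.245). WT replicates 1 and 2 were high and WT replicate 3 lay within the range of the Gα12 KO livers. The second (A_65_P10399) had levels of -0.79, -1.53 and -1.68 in Gα12 KO livers, against -4.09, -2.16 and -1.16 in WT livers, and differed by 1.13 (SE 0.71, limma adjusted p = 0.31). Here WT replicates 1 and 2 were low, replicate 1 not above background, and WT replicate 3 again lay among the Gα12 KO livers. The third (A_55_P2041784) had levels of -3.20, -3.01 and -3.30 in Gα12 KO livers, against -2.22, -2.04 and -2.20 in WT livers.

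The third Gna13 probe was the only tested Gα probe with an unadjusted p below 0.05 (0.00937, adjusted p = 0.235 in limma), and WT replicate 3 stood with the other WT livers. Its processed intensities were 33.0, 36.6 and 40.3 on the Gα12 KO arrays, none well above background, and 47.8, 76.8 and 118 on the WT arrays, all well above background. It had entered the test only through the WT arrays, so its difference of -1.02 (SE 0.30) is given without weight on its p. The bound for this scaling was at least 1.43-fold lower in the Gα12 KO. The background error estimate of the scanner software was 10.5 to 13.3 on Gα12 KO arrays and 5.97 to 8.60 on WT arrays, and its part in which spots counted as above background was not tested. With normexp background correction the difference was -0.33. Across the 3 probes the sign of the Gna13 difference thus depended on the probe, while against WT replicate 3 alone the first and the second gave -0.07 and -0.18 and the third -0.97.

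The stretches of DNA just before the starts of Gna12 and Gna13 are shown because they are the closest pair in function and the knockout concerns one of them. They are the 250 bases upstream of the RefSeq start in build GRCm38.p6, 5′ to 3′ on the gene's own strand, at chr5:140830432-140830681 (minus strand) and chr11:109362544-109362793 (plus strand). Capitals mark GC boxes, searched as GGGCGG and its reverse complement CCGCCC, with overlapping matches counted.
Gna12: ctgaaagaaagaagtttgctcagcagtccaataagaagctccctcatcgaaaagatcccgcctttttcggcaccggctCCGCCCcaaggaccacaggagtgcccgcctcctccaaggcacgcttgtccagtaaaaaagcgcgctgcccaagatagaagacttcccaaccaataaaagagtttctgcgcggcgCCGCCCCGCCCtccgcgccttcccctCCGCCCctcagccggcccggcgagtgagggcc
Gna13: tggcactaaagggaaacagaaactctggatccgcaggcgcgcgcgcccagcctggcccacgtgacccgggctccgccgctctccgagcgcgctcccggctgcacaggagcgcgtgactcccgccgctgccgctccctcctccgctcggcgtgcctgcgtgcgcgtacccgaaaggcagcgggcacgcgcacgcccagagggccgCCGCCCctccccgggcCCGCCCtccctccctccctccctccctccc
The Gna12 window holds 4 such matches and 20 CpG dinucleotides, and the Gna13 window 2 matches and 33 CpG dinucleotides. A GC box occurs in 32.7% of all 32851 RefSeq windows of this length, whose median CpG count is 6. Windows were found for 8 of the 9 genes, all but Gnai2, 11 windows in all, and 7 of the 11 hold a GC box. Several of the 11 belong to Gnas. Those at chr2:174327499-174327748 and chr2:174327518-174327767 overlap and each hold 0 GC boxes, so the 11 are not all separate stretches. GC box matches are letters in a window and say nothing about binding.

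Of the phospholipase C-coupled class, Gnaq and Gna14 had lower levels in every Gα12 KO liver than in any WT liver, and Gna11 did not. Gnaq encodes Gαq; its probe (A_55_P2164724) had levels of 0.58, 0.50 and 0.53 in Gα12 KO livers, against 1.91, 1.94 and 0.59 in WT livers. The difference was -0.94 (SE 0.43, limma adjusted p = 0.24). WT replicates 1 and 2 carried it: WT replicate 3 lay 0.05 from the mean of the Gα12 KO livers, and the groups were separated there by the last digit shown. Gna14 encodes a relative of Gαq with a narrower expression across tissues. Its probe (A_66_P106611) had levels of -1.93, -1.61 and -1.31 in Gα12 KO livers, against -0.76, -0.95 and -1.13 in WT livers, with all 6 arrays well above background. Each WT liver lay above all Gα12 KO livers, with a difference of -0.67 (SE 0.32, limma adjusted p = 0.246). WT replicate 3 (-1.13) was as near to Gα12 KO replicate 3 (-1.31) as to WT replicate 2 (-0.95). Against WT replicate 3 alone the Gna14 difference was -0.49. Without WT replicate 3 it was -0.76 (limma adjusted p = 0.0473), in a fit that called 13123 of all 23132 tested probes. The lowest limma adjusted p over the alternatives tried, 0.00236, came from the fit with array weights described below, which called 18135 of all tested probes. Gna11 encodes Gα11, which acts on the same effector as Gαq. Its probe (A_52_P366932) had levels of 2.52, 2.72 and 2.45 in Gα12 KO livers, against 2.13, 2.70 and 2.63 in WT livers, a difference of 0.08 (SE 0.32, limma adjusted p = 0.872).

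Gnaq and Gna14 are neighbours on chromosome 19, with 0 protein-coding genes between them, and their upstream windows are shown because both genes had non-overlapping groups. They lie at chr19:16132434-16132683 and chr19:16435417-16435666 in GRCm38.p6, both on the plus strand, with GC boxes in capitals as above.
Gnaq: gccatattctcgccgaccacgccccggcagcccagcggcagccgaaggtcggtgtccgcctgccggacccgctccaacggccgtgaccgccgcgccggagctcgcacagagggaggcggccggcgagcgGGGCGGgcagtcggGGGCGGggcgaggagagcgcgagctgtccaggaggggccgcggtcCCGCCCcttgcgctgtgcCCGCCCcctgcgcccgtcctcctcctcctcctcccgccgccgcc
Gna14: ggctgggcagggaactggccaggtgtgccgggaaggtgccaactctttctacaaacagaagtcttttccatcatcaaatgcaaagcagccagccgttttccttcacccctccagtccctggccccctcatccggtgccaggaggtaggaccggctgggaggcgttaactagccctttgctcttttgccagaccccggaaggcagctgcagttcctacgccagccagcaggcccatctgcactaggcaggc
The windows are unlike. That of Gnaq has 37 CpG dinucleotides, a GC content of 79.2% and 4 GC boxes, and that of Gna14 has 7 CpG dinucleotides, a GC content of 60.0% and 0 GC boxes. At most as many CpG dinucleotides as in the Gna14 window occur in 57% of all windows. The part of these sequences in the levels of Gnaq and Gna14 was not tested. Gnai3 also had non-overlapping groups, and its window is not shown. Gna11 lies on chromosome 10 directly beside Gna15, another gene of the same class.

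The Gαi class restrains adenylyl cyclase. Of its 3 genes, Gnai2 and Gnai3 had WT replicates 1 and 2 above the other 4 arrays, and Gnai1 did not. Gnai2 encodes Gαi2, a form that is abundant in blood and immune cells. Its probe (A_55_P2004137) had levels of 3.84, 3.91 and 3.61 in Gα12 KO livers, against 5.52, 5.70 and 3.57 in WT livers. WT replicates 1 and 2 were high, and WT replicate 3 was the lowest of all 6. The difference of -1.14 (SE 0.57, limma adjusted p = 0.251) became 0.22 against WT replicate 3 alone and -1.82 without it. There limma gave an adjusted p of 0.00461, in a fit that called 13123 of all 23132 tested probes. The lowest limma adjusted p over the alternatives tried, 6.8e-05, came from the fit with array weights described below, which called 18135 of all tested probes. The macrophage markers Clec4f, Vsig4, Adgre1, Cd5l, Marco, Csf1r and C1qa, 7 of 8 listed with a probe and all above background on every array, had mean levels of 3.18 to 3.45 in Gα12 KO livers, 3.73 and 3.82 in WT replicates 1 and 2 and 2.99 in WT replicate 3. They did not move as 1: C1qa had levels of 3.07, 2.81 and 2.64 in Gα12 KO livers, against 0.16, 1.58 and 2.52 in WT livers, and Marco 1.86, 2.65 and 3.00 in Gα12 KO livers, against 2.45, 2.09 and 1.21 in WT livers. Their part in the Gnai2 values was not tested.

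Gnai3, which encodes Gαi3, had levels of 4.55, 4.31 and 4.51 in Gα12 KO livers, against 5.09, 5.93 and 4.75 in WT livers (A_51_P237695). All WT livers lay above all Gα12 KO livers, WT replicate 3 by the least, with a difference of -0.80 (SE 0.39, limma adjusted p = 0.246) that was -0.29 against WT replicate 3 alone. Gnai1, which encodes Gαi1, was well above background on 2 of 6 arrays, and 1 liver stood out. Its probe (A_52_P920129) had levels of -2.72, -4.45 and 0.97 in Gα12 KO livers, against -3.29, -3.04 and -3.59 in WT livers. Gα12 KO replicate 3 read an intensity of 777 with an error estimate of 79.0, and the other 5 arrays 13.5 to 46.0. The difference of 1.24 (SE 1.22, limma over all probes, adjusted p = 0.489) was -0.27 without that liver. The same liver had the highest level of skeletal muscle markers: the mean of Acta1, Myh4, Ckm, Mylpf and Tnnt3 was -4.06, -3.18 and -1.38 in Gα12 KO replicates 1 to 3 and -4.70 to -4.18 in WT livers. Of these 5 markers, Ckm and Mylpf were above background on no array. The part of such tissue in the Gnai1 value was not tested.

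Gnas encodes Gαs, which stimulates adenylyl cyclase, and its locus on chromosome 2 is imprinted and makes several transcripts from separate starts. Its brightest probe (A_55_P2081313, accession NM_010309) had levels of 6.65, 6.68 and 6.35 in Gα12 KO livers, against 6.21, 6.29 and 6.60 in WT livers. The groups overlapped, with a difference of 0.19 (SE 0.31, limma adjusted p = 0.661). The other Gnas probes were near background. One (A_55_P2081323, accession NM_019690) was not well above background in any Gα12 KO liver and was so in 2 WT livers, with levels of -4.71, -3.83 and -4.98 in Gα12 KO livers, against -2.87, -3.63 and -3.59 in WT livers. Its difference of -1.14 (SE 0.41, limma over all probes, adjusted p = 0.166) gives no fold, and it was -0.01 after normexp. The groups did not overlap, as was the case for 38.3% of all 55324 probes. The last (A_52_P190394, accession NM_201617) was above background in 1 WT liver only and differed by 0.34 (SE 0.63). Which Gnas transcripts these probes read is not given in the sources used here.

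**Figure D2:**
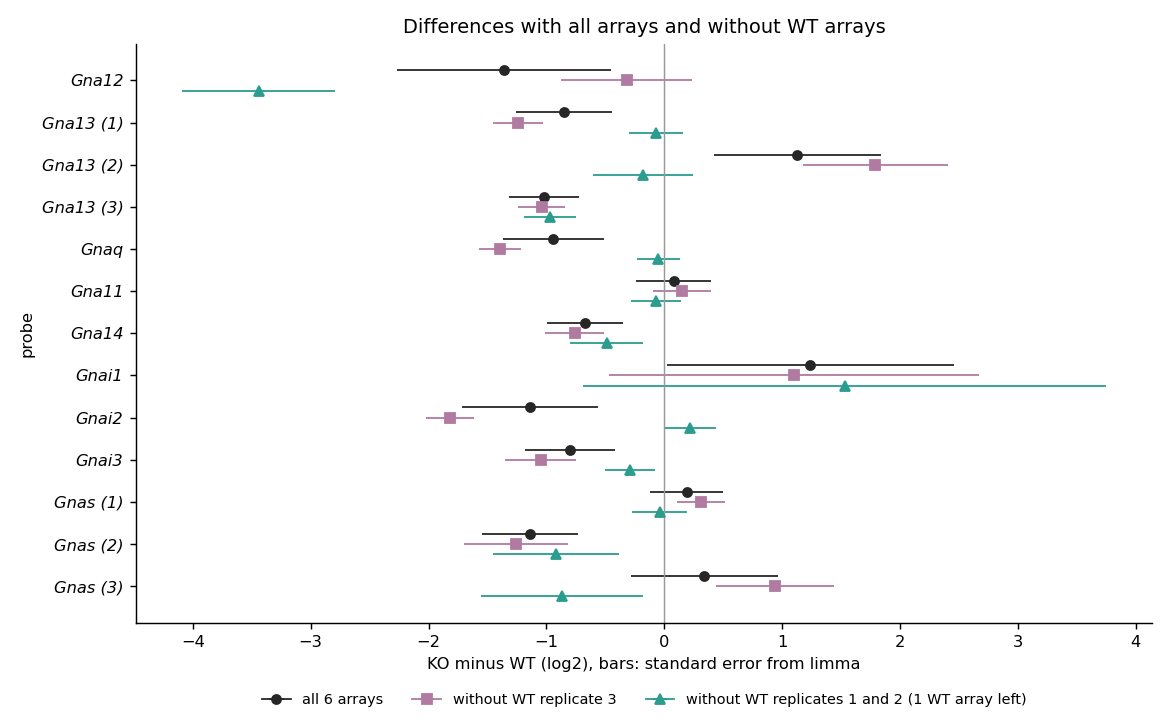
Difference (Gα12 KO minus WT, log2, with the standard error from limma) of each Gα subunit probe from 3 fits, which used all 6 arrays (circles), left out WT replicate 3 (squares), or left out WT replicates 1 and 2 and so kept 1 WT array (triangles). For Gnai2 the 3 values are -1.14, -1.82 and 0.22, whereas for the third Gna13 probe they are -1.02, -1.04 and -0.97.

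Leaving out WT arrays showed which members depended on them. Without WT replicate 3, limma called 6 of the 9 tested Gα probes, all with negative differences: the first and the third Gna13 probe, Gnaq, Gna14, Gnai2 and Gnai3. It then called 13123 of all 23132 probes as well. Without WT replicates 1 and 2, where 1 WT array is assumed to vary like the Gα12 KO arrays, it called 0 Gα probes and 0 of all probes. Of the 9 tested probes, the 2 with a difference beyond 0.40 in size in that comparison were the third Gna13 probe (-0.97) and Gna14 (-0.49), singled out after their values were seen.

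**Figure D3:**
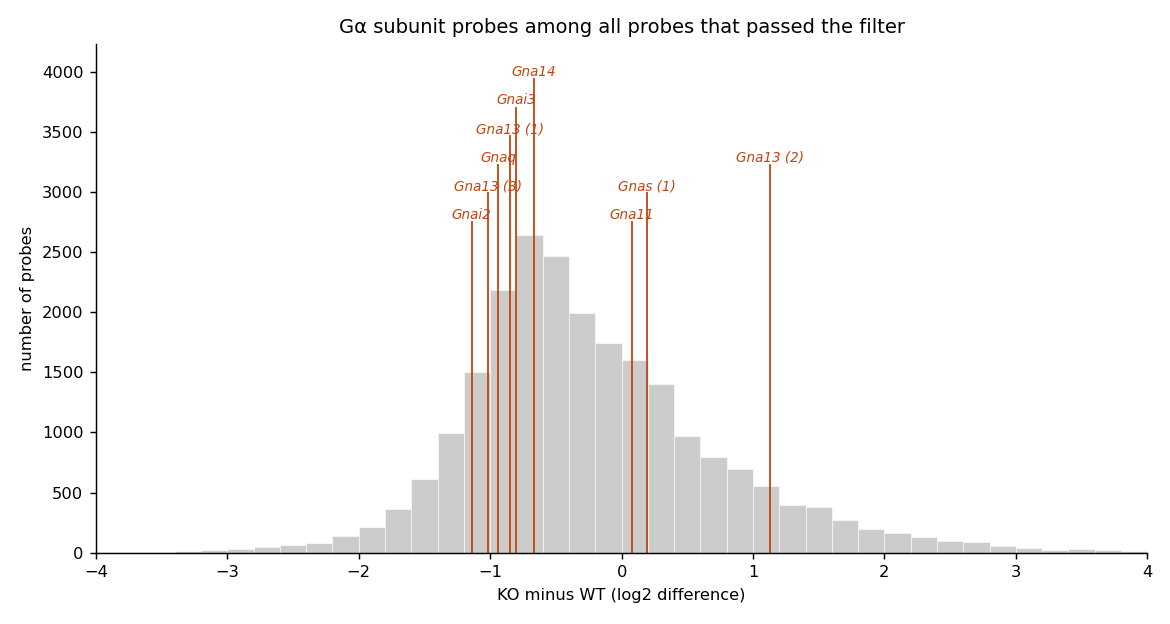
Number of probes (bars) by difference (Gα12 KO minus WT, log2) among the 23132 tested probes, with a line for each of the 9 tested Gα subunit probes; 40 probes beyond 4 log2 units are not shown. The Gα lines lie within the body of the distribution, from -1.14 for Gnai2 to 1.13 for the second Gna13 probe.

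The genes that work with Gα subunits were read from 6 lists of 92 genes, of which 72 had a tested probe; the brightest tested probe stood for a gene. Limma called 0 of the 72 (0% of all 12297 genes were called), while 14 had an unadjusted p below 0.05 with a negative difference (4 of them tested only through the WT arrays) and 5 with a positive one, against 16.6% and 3.98% of all genes. The groups did not overlap for 18 genes lower and 3 higher in the Gα12 KO, against 25.5% of all genes in either direction. The median difference was -0.55, against -0.49 over all genes. WT replicates 1 and 2 lay above the other 4 arrays in 46 of the 72 genes (63.9%), against 59.1% of all genes.

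In the list that leads from Gα12 and Gα13 to RhoA, all 16 genes were tested. Of these, 2 had an unadjusted limma p below 0.05 with a negative difference and 1 with a positive one, against 16.6% and 3.98% of all genes. The median was -0.57, against -0.49 over all genes. The exchange factors that Gα13 activates were among those without such a p: Arhgef1 differed by -0.47 (SE 0.46), Arhgef11 by -0.94 (SE 0.43) and Arhgef12 by -0.54 (SE 0.39), and RhoA's own gene Rhoa by -0.76 (SE 0.38). Their limma adjusted p was 0.239 to 0.488. In each of them WT replicates 1 and 2 lay above the other 4 arrays, and WT replicate 3 lay within or below the range of the Gα12 KO livers. Rock2, a kinase that RhoA activates, differed by -1.04 (SE 0.39), with levels of -1.25, -1.41 and -0.83 in Gα12 KO livers, against 0.36, 0.00 and -0.72 in WT livers, while its dimmer probe differed by -0.04 (SE 0.78). Ppp1r12a, which encodes the myosin phosphatase subunit that such kinases phosphorylate, differed by -1.28 (SE 0.43), while its other tested probe differed by 0.02. Rhob, a relative of Rhoa that is induced by stress, had levels of -0.95, -1.62 and -1.72 in Gα12 KO livers, against -5.37, -5.65 and -1.65 in WT livers. Its difference of 2.79 (SE 0.99) came from WT replicates 1 and 2, which were not above background.

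The cyclic AMP list, whose enzymes answer to Gαs and Gαi, had 19 of 24 genes tested, with a median of -0.78, against -0.49 over all genes. This median includes genes tested only through the WT arrays, named below, so no weight is put on its distance from -0.49. In it 7 had an unadjusted limma p below 0.05 and a negative difference, against 16.6% of all genes, and 0 a positive one, against 3.98%. Of the 7, 4 (Prkar2b, Prkar1b, Pde4d and Creb1) were well above background in no Gα12 KO liver and in all WT livers, so they were tested only through the WT arrays and their p carries no weight. The same held for Adcy5, at -1.07 (SE 0.56), which is not among the 7. The remaining 3 were Pde4b, Rapgef3, which encodes an exchange factor that cyclic AMP binds, and Pde4c. Creb1, Rapgef3 and Pde4c are named to account for the count, after their values were seen. Pde4b, a phosphodiesterase that degrades cyclic AMP, had levels of 0.12, -0.21 and -0.58 in Gα12 KO livers, against 1.47, 1.40 and 1.26 in WT livers. All WT livers, WT replicate 3 included, lay over 1 log2 unit above all Gα12 KO livers. The difference was -1.60 (SE 0.32, limma adjusted p = 0.228), and its other tested probe gave -1.72 (SE 0.31), while another, untested and dim, gave 0.45. Prkar2b, which encodes a regulatory subunit of protein kinase A, was by the group means at least 1.52-fold lower in the Gα12 KO, where none of the livers was above background. That bound rests on WT replicates 1 and 2, at -1.61 and -1.65. WT replicate 3, at -2.93, lay below the lowest signals called above background on the Gα12 KO arrays (-2.79 to -2.48) and gives no fold. Other Prkar2b probes, dim and untested, gave 0.97 (SE 0.33) and 0.08 (SE 0.38), so the probes did not agree. Prkar1b, another regulatory subunit, and Pde4d, another phosphodiesterase, were above background in WT livers only, at signals too low to give a fold, and a dim, untested Pde4d probe gave 0.55 (SE 0.36).

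In the phospholipase C list, 10 of 13 genes were tested, with a median of -0.96, against -0.49 over all genes. In it 1 had an unadjusted limma p below 0.05 and a negative difference, against 16.6% of all genes, and 0 a positive one, against 3.98%. This was Prkcb, a protein kinase C gene, at -1.56 (SE 0.54), with -0.71 (SE 0.39) by its other probe. For Prkcb, WT replicate 3 was at -1.42, near the Gα12 KO livers at -1.52, -2.34 and -1.60. WT replicates 1 and 2 lay above the other 4 arrays in 8 of the 10 genes of this list (80%), against 59.1% of all genes. Among Gβ and Gγ genes, 11 of 17 were tested and the median was -0.49. Gngt1, a Gγ gene known from photoreceptors, differed by -2.82 (SE 0.69), with levels of -1.59, -3.73 and -2.72 in Gα12 KO livers, against 1.01, 0.44 and -1.04 in WT livers. It was well above background in 1 of the 3 Gα12 KO livers and in all WT livers, so the size of its difference rests on signals near background. Gng11 differed by -1.11 (SE 0.47), and Gng10 by 3.1 (SE 1.16), where WT replicates 1 and 2 were at -4.37 and -2.64 and WT replicate 3 at 0.91, within the range of the Gα12 KO livers. Gng10 was well above background in 2 of the 3 WT livers, and the size of its difference is open to the same limit. Of 7 other Gα genes 4 were tested, with a median of 0.78, against -0.49 over all genes. Gnaz, which encodes a Gαi relative, differed by 1.66 (SE 0.56), with -0.05 (SE 0.33) by its dim, untested probe. Gnat1, the rod transducin gene, differed by 1.05 (SE 0.41). In both Gnaz and Gnat1, WT replicates 1 and 2 lay below the other 4 arrays. For Gnaz, WT replicate 3 (-1.05) lay within the range of the Gα12 KO livers.

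Regulators that act on Gα or on the receptor had 12 of 15 genes tested and a median of -0.15, against -0.49 over all genes. Grk5, a kinase that phosphorylates activated receptors, had levels of 1.28, -0.46 and -0.16 in Gα12 KO livers, against -1.16, -0.89 and -1.63 in WT livers, a difference of 1.45 (SE 0.51). All Gα12 KO livers lay above all WT livers, and WT replicate 3 was the lowest. Arrb1, which encodes an arrestin, differed by -1.16 (SE 0.37) and Gpsm2, which encodes a Gαi-binding regulator, by -1.07 (SE 0.39), both with WT replicate 3 between the other WT livers and the Gα12 KO livers. The limma adjusted p was 0.228 to 0.236 for all genes named from these lists for an unadjusted p below 0.05.

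**Figure D4:**
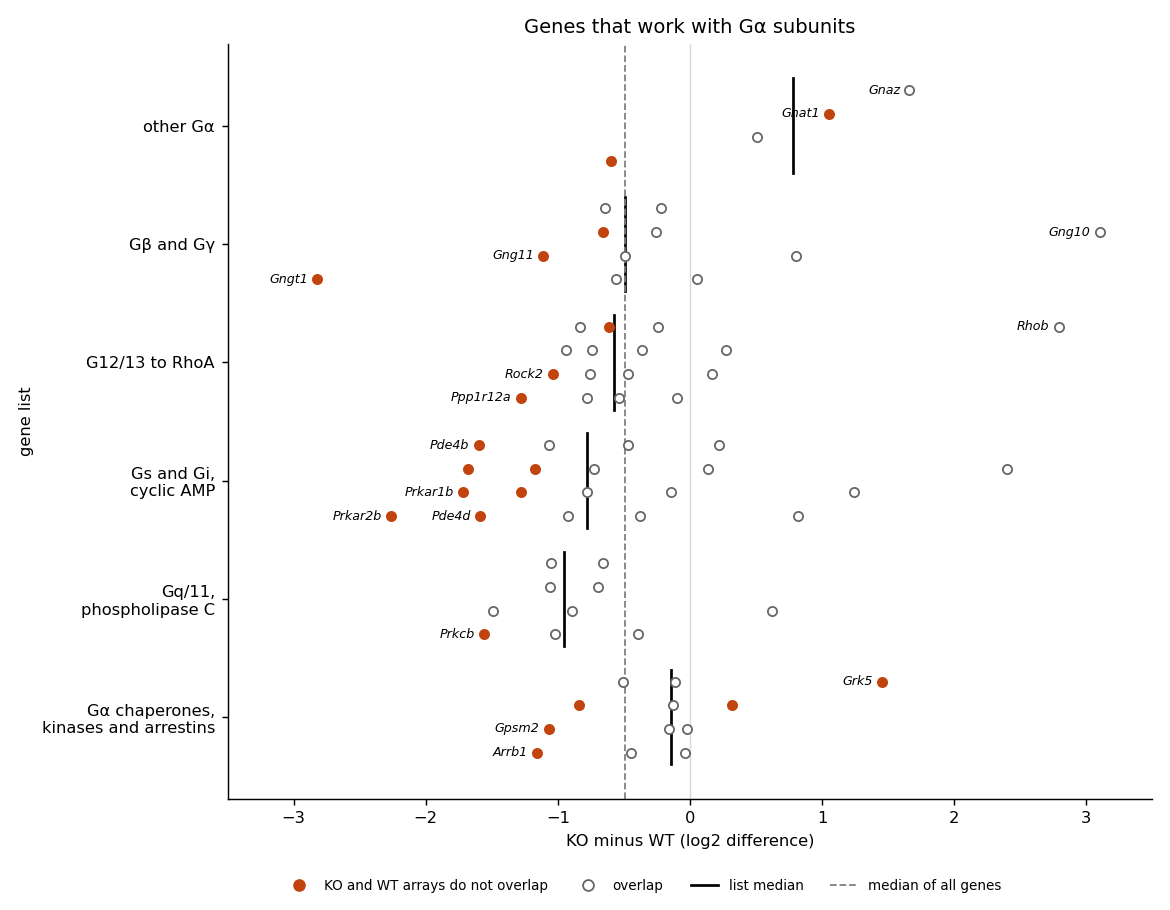
Difference (Gα12 KO minus WT, log2) of 72 genes in 6 lists of Gα partners and effectors, 1 point a gene, filled where the 3 Gα12 KO and 3 WT livers do not overlap, with the list median (solid line) and the median of all genes (dashed line, -0.49). In the cyclic AMP list 7 points are filled, against 25.5% of all genes in either direction, and 4 of the 7 are genes tested only through the WT arrays. Pde4b lies at -1.60.

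Next to Gna12 on chromosome 5, the 10 entries on each side in the RefSeq order held 7 genes with a probe, 4 of them tested. Amz1, a metalloprotease gene beside Gna12, had levels of -2.89, -3.07 and -3.21 in Gα12 KO livers, against -1.57, -1.59 and -2.62 in WT livers, a difference of -1.13 (SE 0.39, limma adjusted p = 0.235). Iqce differed by -0.54 (SE 0.39) and Ttyh3 by -0.23 (SE 0.55), against a median of -0.49 over all genes.

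The genes with the pattern most like that of the first Gna13 probe over the 6 arrays were Mtfmt, Msh3 and Vrk2, with Pearson r of 0.9992, 0.9989 and 0.9988. In each, WT replicates 1 and 2 were high and WT replicate 3 lay with the Gα12 KO livers, and 2971 of 12296 genes had an r over 0.95 with this probe. Those most like Gna12 were Trp53bp1, Olfr1347 and Zfp457 (r of 0.9968, 0.9802 and 0.979), each highest in WT replicate 3, and 13 of 12297 genes had an r over 0.95. The Gna12 probe was well above background on WT replicate 3 alone, so its r values rest largely on that array and on background readings elsewhere. With 6 arrays that share 1 slide, such values are a description only.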

How the data were processed

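Liver RNA of 3 Gα12 KO and 3 WT mice was measured on 6 arrays of 1 slide, and the sample titles gave each array's group and replicate number. Per the labels, each array took Cy3-labelled cRNA made from 0.5 µg of RNA, and each was taken as 1 animal. Feature Extraction 10.7.3.1 (Agilent) quantified the spots, per the file headers. For each spot the authors deposited the processed intensity, background-subtracted and floored by that software, with its error estimate and the raw median intensities. The series matrix deposited by the authors holds log2 values, which differed from the log2 processed intensity by 1 constant per array (100% of single-spot probes within 0.01); column medians were 4.32, 4.44 and 4.52 for the Gα12 KO and 4.41, 4.17 and 4.70 for WT, and how the constants were chosen is not given in the sources used here. It was not centred per probe.

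From 59305 non-control spots, log2 processed intensity minus the array's 75th percentile was taken, spots marked as outliers were left out and spots of a probe averaged. Probes were named through RefSeq accessions of GRCm38.p6 (26762 named, 28919 not), which served for names, gene order and upstream sequences only, since the array was designed on an older build. Of 55324 probes with a value on all arrays, 23132 were well above background on at least 3 arrays, whatever their group, counting a probe whose spots had at least 1 such call. The difference Gα12 KO minus WT was fitted in R 4.3.3 with limma 3.58.1 (two-sided, Benjamini-Hochberg over all tested probes, threshold 0.05); dim member probes took their values from the same fit over all 55324. The test was checked on simulated data. A bound ("at least") sets the bright group's mean against the mean, per dim array, of the higher of the probe's own signal and the lowest signal called above background.

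The members, lists and tests were chosen with earlier results of these data known. Named were every member probe, from each list up to 4 genes with the lowest unadjusted limma p below 0.05, and the 3 genes most like Gna12 and Gna13 by Pearson r; other genes are named as known partners or neighbours, and were chosen after their values were seen. The values of 1 tested gene beside Gna12 are not reported here. The plan named mean spot intensities for normexp; the files hold medians, which were used with an offset of 50. The number of arrays limits precision: 3 against 3 allows an exact permutation p of 0.1 at the least, so none was computed.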

Additional observations from a re-analysis of the deposited data

How the results depend on the processing

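The counts of calls were 0 for all probes, Gα probes, partner lists and genes beside Gna12, with 21% of tested probes at an unadjusted limma p below 0.05. Other settings called few more of all probes: 1 with normexp, 18 with quantile normalization, 2 with the filter on all 6 arrays and 7 genes with the mean over a gene's probes. With single arrays left out, the counts ran from 0 to 13123 for all probes, 0 to 6 for Gα probes, 0 to 52 for the partner lists and 0 to 3 beside Gna12, each maximum being without WT replicate 3. Array weights gave 18135, 8, 60 and 4 calls. Their estimation stopped before it converged and put weights of 42.9 on WT replicate 2 and 0.0664 on WT replicate 3 over the tested probes, and of 83.7 and 0.0828 over all probes, so that 1 WT array set the WT mean; Gna12 was then 0.10, Gna11 -0.11 and the dimmest Gnas probe 0.86.

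The difference of the third Gna13 probe, which was tested only through the WT arrays, kept its sign in 16 of 16 alternatives (-1.13 to -0.33). Gna14 did so in 17 of 17 (-0.82 to -0.36), Gnai3 (-1.48 to -0.29), Gnaq (-1.40 to -0.05) and the first Gna13 probe (-1.24 to -0.07) likewise in 17 of 17, and Gna12 in 16 of 17 (-3.44 to 0.10). The alternatives reuse the same arrays, so a kept sign is a description only. Some signs turned. Without WT replicates 1 and 2 the second Gna13 probe was -0.18, Gna11 -0.07, Gnai2 0.22, the brightest Gnas probe -0.04 and the dimmest -0.87. The dimmest Gnas probe was -0.09 with normexp. With single arrays left out it ran from -0.13 to 0.94 (negative without Gα12 KO replicate 2 and, at -0.03, WT replicate 2), Gnai1 from -0.27 to 2.43 (negative without Gα12 KO replicate 3) and Gna11 from -0.10 to 0.18 (negative without WT replicate 1). The causes were not tested.

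With the replicate number as a block, limma again called 0 probes, and Gna12 was -1.36 with an adjusted p of 0.255. Deviations of same-numbered arrays from their group means correlated at -0.13, 0.009 and -0.043. With 3 arrays per group such values can neither show nor exclude a pairing by number. The median difference over all tested probes was -0.38, and -0.24 with median scaling or normexp, -0.16 with quantile normalization and -0.44 in the deposited matrix; under each, 6 of the 9 tested Gα probes lay below it.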
